A study of Mus musculus with 8 samples.

Results

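The genes described here encode the CD8 co-receptor (Cd8a, Cd8b1), the CD3 chains of the T cell receptor complex (Cd3d, Cd3e, Cd3g), granzymes (Gzma, Gzmb, Gzmk) and the cytotoxic granule proteins Nkg7 and Prf1. They are 10 of the 31910 genes in the deposited count table, taken by symbol, and all 10 were found. The set was chosen by the counts and CPM of these same libraries, since Cd8a and Gzma were higher in SA livers than in Ctrl livers. Differences of the 10 genes between the groups are thus a description, with no p-value. Calls of these genes in the fits across all genes are given beside the share of all genes called, and they support nothing here. RNA sequencing gave 8 libraries of frozen mouse liver, 4 of them from mice that received AAV2/9-SA, an adeno-associated viral vector, and 4 from mice that received AAV2/9-Ctrl, its control. The series is about a protein of bacterial origin, reported to bind acetyl-CoA carboxylase, and its effect on steatohepatitis, in which a fatty liver is also inflamed. Its design gives a tail vein dose of 4.8e10 vector genomes for each mouse once 7 weeks of feeding had passed, and diet arms of a high-fat diet for 24 weeks, a diet high in fat and cholesterol with sugared water for 16 weeks, and normal chow. Diet, strain, sex and age are not given for the single livers, and neither are the meaning of SA and the promoter or cell type that drives the vector's gene.

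CD8 is a dimer on cytotoxic T cells that binds MHC class I while the T cell receptor reads the peptide, and the CD3 chains carry the receptor's signal into the cell. Cytotoxic T cells and natural killer (NK) cells kill by releasing granules that hold perforin, which makes pores in the target membrane, and granzymes, proteases that then enter the target. The mouse liver normally holds both kinds of cell in its sinusoids, and CD8 T cells collect there in steatohepatitis.

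The libraries held 14114145 to 28184001 counts in SA and 14359368 to 15328093 in Ctrl, and the largest was SA 4. At this depth 1 count is a small fraction of a CPM (count over all counts of the library, scaled as the usual CPM), and 3 counts, the limit that a count of 0 allows, correspond to 0.106 to 0.213 CPM in SA and 0.196 to 0.209 CPM in Ctrl. Ctrl 4 stood apart with 9.23% of its counts from mitochondrially encoded genes, against 4.18% to 4.87% in SA and 3.55% to 4.67% in the other Ctrl libraries. Hepatocyte genes fit the labelled tissue, with 10 of them summing to 84391 to 104758 CPM in SA and 80952 to 106201 CPM in Ctrl. The labels number the livers 1 to 4 in each group without saying that each is a separate mouse, so p-values and spreads below measure the differences between these libraries, which may be in part technical.

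Both CD8 chains had more reads in every SA liver than in any Ctrl liver. Cd8a, which encodes the alpha chain, had 18, 24, 27 and 33 counts in SA 1 to SA 4, against 5, 2, 2 and 3 counts in Ctrl 1 to Ctrl 4. As CPM this was 1.22, 1.51, 1.91 and 1.17 CPM in SA, against 0.348, 0.133, 0.130 and 0.197 CPM in Ctrl. The lowest SA library was thus well above the highest Ctrl library, and the mean was 1.45 ± 0.341 CPM in SA and 0.202 ± 0.102 CPM in Ctrl (SD, n = 4 each), 7.18 times as high in SA. Cd8b1, the beta chain, which pairs with the alpha chain on conventional cytotoxic T cells, had 0.745, 0.816, 1.70 and 0.532 CPM in SA, against 0.487, 0.0667, 0.196 and 0.131 CPM in Ctrl. The groups did not overlap for Cd8b1 either, but SA 4, with 15 counts, lay close to Ctrl 1, with 7 counts. Its mean was 0.949 ± 0.516 CPM in SA and 0.220 ± 0.186 CPM in Ctrl (SD, n = 4 each), 4.31 times as high in SA. On the log2 scale the fitted fold change (edgeR, every gene with a count) was 2.79 ± 0.53 (SE) for Cd8a and 2.05 ± 0.65 (SE) for Cd8b1. The value of Cd8b1 was 1.64 without SA 3 and 2.73 without Ctrl 1. In bulk tissue a larger number of cells of a type and more RNA per cell cannot be told apart.

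The CD3 chains, which every T cell needs at its surface, did not separate the groups, and the 3 chains did not move alike. Cd3d had 0.339, 0.126, 0.425 and 0.852 CPM in SA, against 0.139, 0.267, 0.196 and 0 CPM in Ctrl, so SA 1, SA 3 and SA 4 were above every Ctrl library and SA 2 was below 3 of them. Cd3g had 1.29, 0.565, 0.354 and 0.887 CPM in SA, against 0.557, 0.533, 0.522 and 0.131 CPM in Ctrl, with SA 3 below 3 of the Ctrl libraries. Cd3e ran the other way on average, with 0, 0.0628, 0.213 and 0.390 CPM in SA, against 0, 0.467, 0.848 and 0 CPM in Ctrl. Its 20 counts in Ctrl came from Ctrl 2 and Ctrl 3 alone, and its 15 counts in SA were mostly those of SA 4. The fitted log2 fold changes were 1.55 ± 0.81 for Cd3d, 0.84 ± 0.58 for Cd3g and -0.80 ± 1.04 for Cd3e (SE). Cd3d came to 0.91 without SA 4. The value of Cd3e turned to 0.16 without Ctrl 3 and was -1.78 without SA 4. The 3 chains together had 24, 12, 14 and 60 counts in SA, against 10, 19, 24 and 2 counts in Ctrl, or 1.38 ± 0.623 CPM in SA and 0.915 ± 0.635 CPM in Ctrl (SD, n = 4 each). For every count of the CD3 chains there were 0.75, 2, 1.93 and 0.55 counts of Cd8a in SA, against 0.5, 0.105, 0.0833 and 1.5 in Ctrl. The groups overlapped through Ctrl 4, where the 1.5 rests on 3 counts over 2.

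Among the granzymes, Gzma and Gzmk separated the groups and Gzmb did not, and the rise of Gzma was a reason for choosing the set. Gzma, the granzyme that cuts after basic residues and is abundant in NK cells and some CD8 T cells, had 33, 32, 42 and 86 counts in SA, against 10, 4, 14 and 1 counts in Ctrl. In CPM it stood at 2.24, 2.01, 2.98 and 3.05 in SA, against 0.696, 0.267, 0.913 and 0.0656 in Ctrl, with no overlap. Its mean was 2.57 ± 0.524 CPM in SA and 0.486 ± 0.388 CPM in Ctrl (SD, n = 4 each), 5.29 times as high in SA, with a fitted log2 fold change of 2.41 ± 0.49 (SE). Gzmk, a related protease typical of memory-like CD8 T cells, had 4, 1, 11 and 9 counts in SA and none in any Ctrl library. Each SA library had at least 1 count, but the 1 count of SA 2 lies under the limit that a count of 0 allows in Ctrl. Set against 3 counts over the whole Ctrl group, 0.0501 CPM, the pooled SA level of 0.343 CPM was 6.84 times as high. This allows for counting error in Ctrl only and leaves out the counting error and the spread of the SA libraries. Gzmb, the granzyme that cuts after aspartate and triggers apoptosis, had 0.135, 0.440, 1.49 and 0.568 CPM in SA, against 0.418, 0.867, 0.391 and 0.197 CPM in Ctrl. Only SA 3 was above every Ctrl library for Gzmb, SA 1 was below them all, and the fitted log2 fold change of 0.45 ± 0.66 (SE) turned to -0.23 without SA 3.

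**Figure D1:**
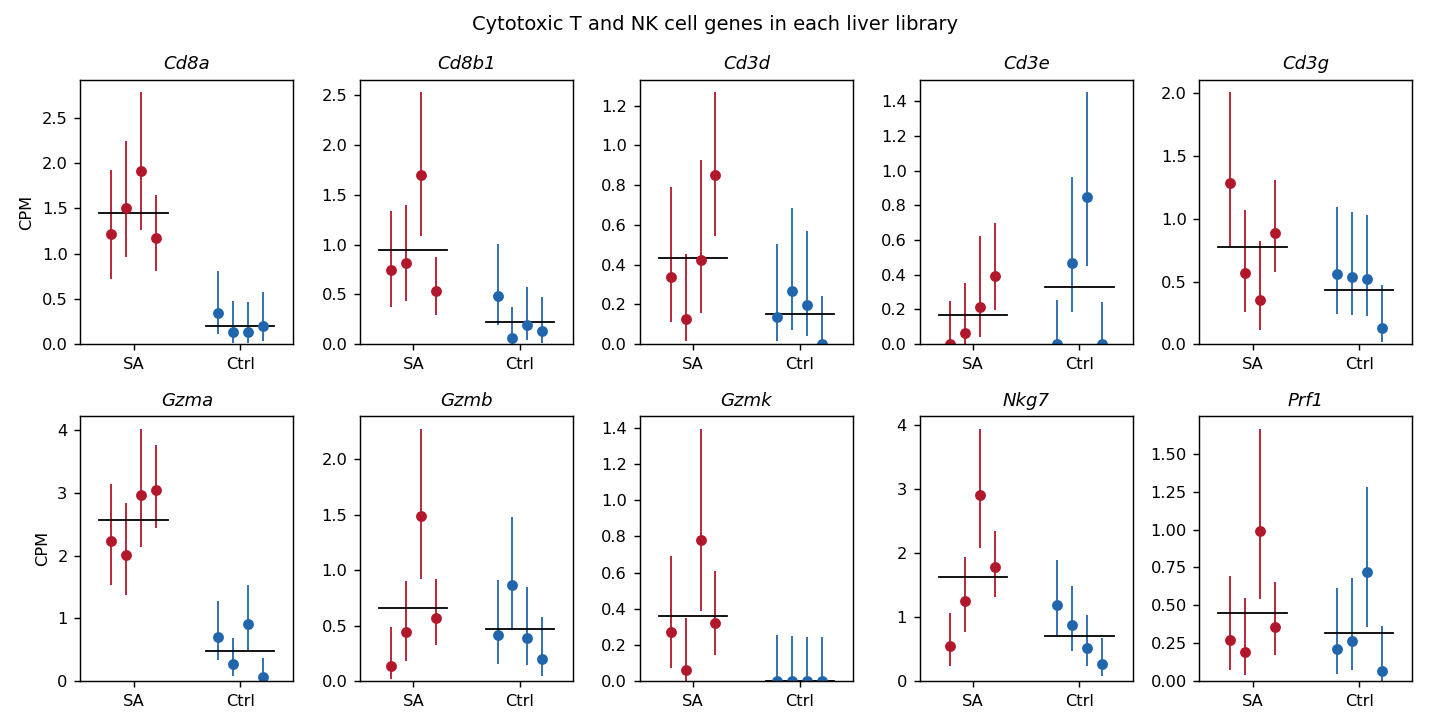
Level of each gene in CPM (vertical axis, a scale per gene) in the 4 SA libraries and the 4 Ctrl libraries, replicates 1 to 4 from left to right, with the 95% exact Poisson interval of each count (counting error only) and the group mean as a black line. Cd8a, Cd8b1, Gzma and Gzmk have every SA library above every Ctrl library, while the other 6 genes overlap.

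The remaining granule genes overlapped between the groups. Nkg7, a membrane protein of cytotoxic granules that is needed for their release, had 0.542, 1.26, 2.90 and 1.77 CPM in SA, against 1.18, 0.867, 0.522 and 0.262 CPM in Ctrl. SA 2, SA 3 and SA 4 were above all Ctrl libraries, while SA 1 lay below Ctrl 1 and Ctrl 2. Its mean was 1.62 ± 0.995 CPM in SA and 0.709 ± 0.402 CPM in Ctrl (SD, n = 4 each), with a fitted log2 fold change of 1.18 ± 0.52 (SE). Prf1, which encodes perforin, had 0.271, 0.188, 0.992 and 0.355 CPM in SA, against 0.209, 0.267, 0.718 and 0.0656 CPM in Ctrl. Its groups overlapped almost fully, and the fitted log2 fold change of 0.50 ± 0.73 (SE) turned to -0.14 without SA 3 and came to 1.22 without Ctrl 3.

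Sequences just upstream of the gene starts are shown for Cd8a, Gzma and Gzmk, which separated the groups, and for Gzmb, which did not. RefSeq (GRCm38.p6) gives such a window for 9 of the 10 genes, and the 250 bases before the annotated start are used. Capitals mark 2 short motifs searched on both strands, TGTGGT of RUNX factors and TCACAC of T-box factors, families known to act in CD8 T and NK cells. The first has a match in 14% and the second in 12.3% of the 32851 windows of the same length before all genes.
Cd8a, chr6:71373177-71373426, plus strand: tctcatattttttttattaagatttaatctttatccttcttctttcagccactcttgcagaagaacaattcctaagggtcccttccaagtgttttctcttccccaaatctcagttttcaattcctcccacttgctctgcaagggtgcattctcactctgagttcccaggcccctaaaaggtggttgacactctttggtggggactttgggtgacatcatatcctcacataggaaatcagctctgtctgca
Gzma, chr13:113100982-113101231, minus strand: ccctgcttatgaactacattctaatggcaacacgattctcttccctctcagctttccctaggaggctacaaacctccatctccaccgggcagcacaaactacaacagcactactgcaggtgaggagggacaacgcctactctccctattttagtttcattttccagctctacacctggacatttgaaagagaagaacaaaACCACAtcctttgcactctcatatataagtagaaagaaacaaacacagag
Gzmk, chr13:113180966-113181215, minus strand: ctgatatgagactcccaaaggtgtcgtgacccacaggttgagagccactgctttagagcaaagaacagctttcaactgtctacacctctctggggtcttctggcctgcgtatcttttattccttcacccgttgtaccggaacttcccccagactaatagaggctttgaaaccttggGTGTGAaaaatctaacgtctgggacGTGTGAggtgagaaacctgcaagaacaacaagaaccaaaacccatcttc
Gzmb, chr14:56262335-56262584, minus strand: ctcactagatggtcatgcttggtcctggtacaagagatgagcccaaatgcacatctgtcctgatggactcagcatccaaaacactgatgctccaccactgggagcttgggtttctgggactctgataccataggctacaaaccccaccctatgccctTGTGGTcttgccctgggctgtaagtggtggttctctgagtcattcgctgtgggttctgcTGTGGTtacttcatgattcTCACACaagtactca
The RUNX letters occur once before Gzma, with the match starting 50 bases before the start, and at 2 places before Gzmb. The T-box letters occur at 2 places before Gzmk and once before Gzmb, and the 2 motifs share no base there. Neither motif is in the Cd8a window. Over the 9 windows, 4 hold the RUNX letters (Gzma, Gzmb, Nkg7 and Prf1) and 3 hold the T-box letters (Gzmb, Gzmk and Nkg7). These are matches of letters and do not show binding, and genes that separated the groups and genes that did not both hold them.

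Over the 10 genes, 9 had a higher mean CPM in SA than in Ctrl, the exception being Cd3e. For 4 genes the lowest SA library exceeded the highest Ctrl library, where 1.26% of the 17681 genes with a count did so. The rule used this contrast, so nothing is read from that share. Only 3 of the 10 genes (Cd8a, Gzma and Nkg7) had enough counts to pass the low-count filter of the edgeR test, which asks for counts in at least 4 libraries and can be met through SA alone. Of these 3, none was called (edgeR quasi-likelihood test, adjusted p under 0.05), where 0.0162% of 12358 tested genes were, 0.00809% higher and 0.00809% lower. Without the low-count filter edgeR called none of the 10, where it called 0.0452% of genes, and DESeq2 called 2 of the 10, Cd8a and Gzma, where it called 0.425% of genes. These fits use the contrast on which the genes were chosen, so their calls support nothing here.

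**Figure D2:**
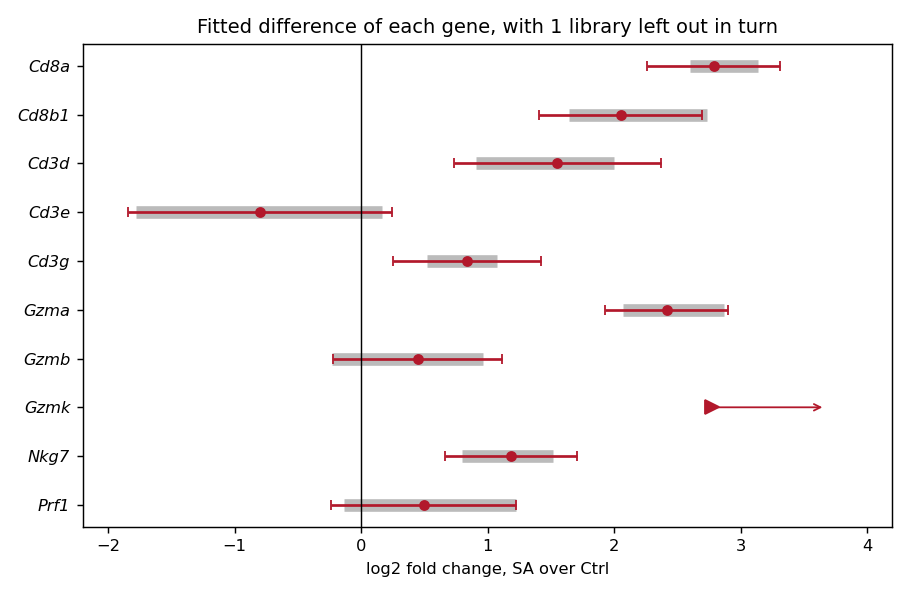
Fitted log2 fold change of SA over Ctrl for each gene (points, bars are SE), from an edgeR fit on all genes with a count, with the range when 1 library at a time is left out (grey). The triangle for Gzmk is the pooled SA level against 3 counts over the Ctrl group, without the counting error of SA. Cd3e, Gzmb and Prf1 are the genes whose range crosses 0.

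Within each group, 1 library tended to be highest or lowest for several of the genes. SA 3 had the highest CPM of the SA libraries for 6 of the 10 genes, SA 4 for 3, SA 1 for 1 and SA 2 for none. Ctrl 4 was alone the lowest Ctrl library for 6 genes and the highest for none. Summed over the 10 genes, SA 1 to SA 4 had 7.04, 7.03, 13.7 and 9.90 CPM, against 4.04, 3.73, 4.44 and 1.05 CPM in Ctrl 1 to Ctrl 4. Genes of red blood cells were likewise highest in SA 3 and SA 4 among SA and lowest in Ctrl 4 among Ctrl, with 6 of them summing to 44.8, 53.0, 211.0 and 194.5 CPM in SA, against 88.9, 73.6, 165.8 and 24.8 CPM in Ctrl. Of these 6, Alas2 was at 0 in every library. SA 1 and SA 2 thus had fewer erythroid counts than Ctrl 1 to Ctrl 3 and more counts of the 10 genes, while the low values of Ctrl 4 occurred in both. The part of blood in the differences was not tested.

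The higher CD8 and Gzma levels were not matched by more counts of leukocytes in general. Ptprc, which encodes CD45, the surface phosphatase of all white blood cells, had 18.6, 27.6, 29.5 and 22.2 CPM in SA, against 28.6, 15.9, 33.5 and 24.8 CPM in Ctrl. It did not pass the test, at -0.08 ± 0.21 on the log2 scale (SE, with an adjusted p of 0.996 from edgeR), and 9 pan-leukocyte genes summed to 109 ± 17.8 CPM in SA and 120 ± 39.6 CPM in Ctrl (SD, n = 4 each). For every 100 counts of Ptprc there were 6.57, 5.47, 6.49 and 5.27 counts of Cd8a in SA, against 1.22, 0.837, 0.389 and 0.794 in Ctrl. Gzma had 12.0, 7.29, 10.1 and 13.7 counts per 100 of Ptprc in SA, against 2.44, 1.67, 2.72 and 0.265 in Ctrl. The CD3 chains together had 8.76, 2.73, 3.37 and 9.58 per 100 of Ptprc in SA, against 2.44, 7.95, 4.67 and 0.529 in Ctrl, and these overlapped.

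**Figure D3:**
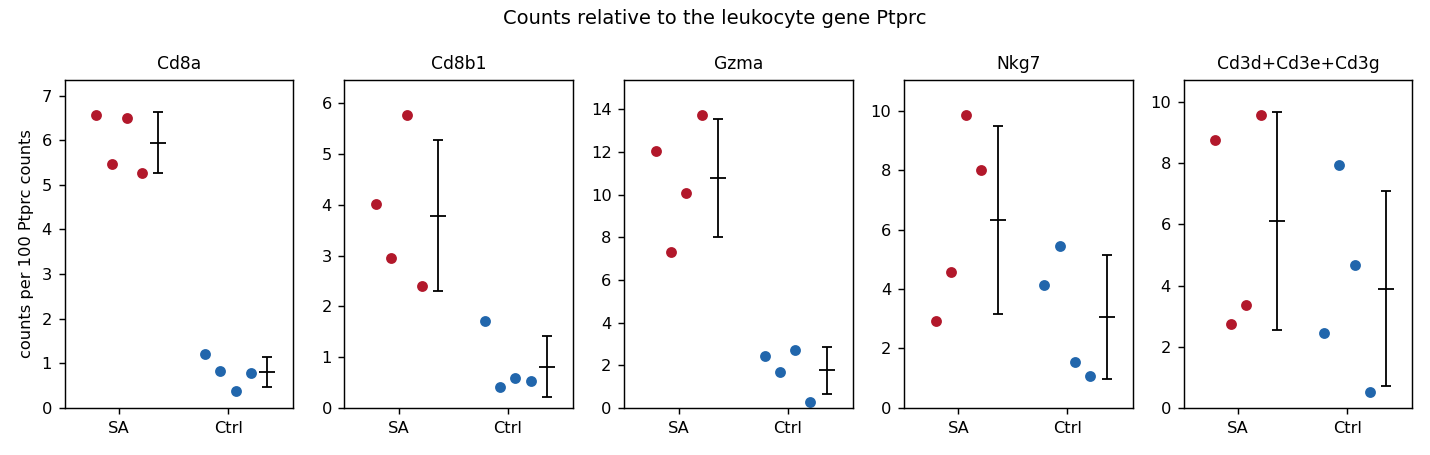
Counts of Cd8a, Cd8b1, Gzma, Nkg7 and the sum of the 3 CD3 chains for every 100 counts of Ptprc (vertical axis) in each SA and Ctrl library, replicates from left to right, with the mean and SD of the 4 libraries in black. Cd8a lies between 5.27 and 6.57 in SA and between 0.389 and 1.22 in Ctrl, while Nkg7 and the CD3 chains overlap.

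The other genes of T and NK cells were taken from 8 lists, chosen with earlier results of these data known. They hold 121 genes of the table outside the 10, of which 51 passed the low-count filter. None of the 51 was called with edgeR, where 0.00809% of all tested genes were called higher and 0.00809% lower, and none with DESeq2. At an unadjusted p under 0.05 there were 3 higher and 2 lower, where 6.21% of all tested genes reached it. Their median log2 fold change was 0.03, against -0.01 over all 12358 genes, and 28 of the 51 were positive.

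The gene with the smallest p in the cytokine list was Ccl5, a chemokine that cytotoxic T cells and NK cells release and that draws in further T cells. It had 2.64, 3.01, 3.97 and 3.94 CPM in SA, against 2.44, 1.33, 1.37 and 0.787 CPM in Ctrl, with no overlap but little distance from SA 1 to Ctrl 1. The fitted change was 1.20 ± 0.34 on the log2 scale (SE, with an adjusted p of 0.475 from edgeR), and the adjusted p ran from 0.119 to 0.859 over the alternatives. In the authors' FPKM table, which lists Ccl5 but none of the 10 genes, it had 6.59, 7.43, 8.70 and 9.03 FPKM in SA, against 6.30, 2.01, 3.78 and 1.87 FPKM in Ctrl. There too the groups did not overlap, again with SA 1 close to Ctrl 1. These FPKM values come from the same libraries, and for some genes they depart from the counts. Id2 in Ctrl 1 had 1.30 FPKM, against 100 to 139 FPKM in the other libraries, but 180 CPM, its highest value. Ifng, the main cytokine of activated cytotoxic cells, had 1 count in SA 2 and none elsewhere.

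Of the T cell receptor and signalling genes, 9 were tested and none passed. By mean CPM, 10 of the 12 receptor genes with a count were higher in SA and 2 lower. For the signalling genes 11 of 13 were higher in SA and 2 lower. Over all genes with a count, 8952 were higher in SA and 8729 lower. Only 3 of the receptor and 6 of the signalling genes had enough counts for the test. Cd4, the co-receptor of helper T cells that Kupffer cells and dendritic cells can also carry, had a fitted change of 0.35 ± 0.58 on the log2 scale (SE) and Icos, a co-stimulatory receptor, one of 0.29 ± 0.34 (SE; edgeR, adjusted p = 0.996 for each). Lck, the kinase bound to CD8 and CD4, had 1.22, 1.26, 0.992 and 1.14 CPM in SA, against 1.18, 0.467, 0.979 and 0.721 CPM in Ctrl. Its log2 fold change of 0.45 ± 0.36 (SE) did not pass (edgeR, adjusted p = 0.989), and the groups overlapped through Ctrl 1. Zap70, the kinase that acts after Lck, had -0.28 ± 0.36 and Themis, a T cell signalling adaptor, -0.69 ± 0.41 (SE; edgeR, adjusted p = 0.996 and 0.940). All 6 tested signalling genes lay between -0.69 and 0.45.

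Genes of NK cell receptors overlapped between the groups in their summed level. The 24 in the table summed to 9.35, 12.6, 11.8 and 13.6 CPM in SA, against 12.5, 9.74, 13.8 and 10.4 CPM in Ctrl, a mean of 11.8 ± 1.80 CPM in SA and 11.6 ± 1.89 CPM in Ctrl (SD, n = 4 each). Much of this sum came from Il2rb, Klrk1 and Slamf7, which differed in opposite directions. Their mean CPM was 4.13, 1.93 and 0.917 in SA, against 2.92, 1.54 and 2.24 in Ctrl. The receptors that define NK cells were near the limit of detection. Ncr1 had 8 counts in SA and 12 in Ctrl, Klrb1c had 10 in SA and 13 in Ctrl, and Klre1 had 13 in SA and 18 in Ctrl. Other members of the list were higher in SA, such as Klrc1 with 47 counts in SA and 25 in Ctrl and Cd226 with 57 in SA and 32 in Ctrl. Of the 23 with a count, 10 had the higher mean CPM in SA and 13 in Ctrl. Ncr1, Klrb1c, Klre1, Klrc1 and Cd226 were named after their values were seen. So was Eomes, an NK cell transcription factor from the list of lymphoid factors, with 25 counts in SA and 5 in Ctrl and overlapping groups. Of the 14 genes in that list, 6 had the higher mean CPM in SA and 8 in Ctrl. Klrk1, the activating receptor NKG2D shared by NK and CD8 T cells, had a log2 fold change of 0.34 ± 0.35 and Il2rb, the receptor chain for IL-2 and IL-15, 0.51 ± 0.30 (SE; edgeR, adjusted p = 0.996 and 0.940). Slamf7, a receptor also on plasma cells and macrophages, had 1.15, 0.565, 0.638 and 1.31 CPM in SA, against 2.92, 1.6, 2.48 and 1.97 CPM in Ctrl. All SA libraries were below all Ctrl libraries, and the fitted change was -1.25 ± 0.37 on the log2 scale (SE), but it did not pass either (edgeR, adjusted p = 0.480, and 0.203 to 0.998 over the alternatives).

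Of the other granule genes, 9 of 18 passed the filter, and none differed past the threshold. Ctsc, which encodes the protease that activates granzymes and is also made in macrophages, had 0.32 ± 0.20 on the log2 scale (SE, with an adjusted p of 0.954 from edgeR). Rab27a and Stxbp2, which act in granule release, had 0.35 ± 0.27 and 0.08 ± 0.18 (SE; edgeR, adjusted p = 0.989 and 0.996). Gzmc had 1 count in Ctrl 1, and Gzmd, Gzme, Gzmf, Gzmg and Gzmn were at 0 in every library. A 0 in every library of the count table need not mean that a transcript was absent, since 495 of the 8638 genes that both tables list were at 0 throughout the counts and above 0 in every library in FPKM. The adaptor Lcp2, which T cells and myeloid cells use, is 1 of these, at 3.35, 3.84, 5.21 and 3.90 FPKM in SA and 4.30, 2.42, 5.47 and 3.22 FPKM in Ctrl.

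No tested gene among the transcription factors, homing receptors and checkpoint receptors passed. Tested were 9 of 14 factors, 11 of 16 homing receptors and only 3 of 9 checkpoint receptors. Of the 8 checkpoint genes with a count, 6 had the higher mean CPM in SA and 2 in Ctrl, where 8952 of all genes were higher and 8729 lower. Pdcd1 and Tigit, which had too few counts for the test, are described under other observations. Zbtb16, which directs innate-like T cells and which hepatocytes also express, had 53.9, 71.1, 39.0 and 22.5 CPM in SA, against 4.46, 6.27, 18.01 and 24.8 CPM in Ctrl. The groups overlapped through SA 4 and Ctrl 4, and the fitted change was 1.76 ± 0.49 on the log2 scale (SE, with an adjusted p of 0.437 from edgeR). Ikzf3, a lymphocyte factor, had 1.06 ± 0.47 (SE; edgeR, adjusted p = 0.797), and 0.52 without SA 3, which held the most of its counts. Ccr7, a receptor that brings naive T cells and dendritic cells to lymph nodes, had -1.13 ± 0.46, and S1pr5, a receptor for NK cell exit that endothelial cells also carry, had 0.37 ± 0.22 (SE; edgeR, adjusted p = 0.722 and 0.940). Id2 and Hopx, factors of innate and memory lymphocytes that the liver's other cells also express, had -0.21 ± 0.19 and -0.22 ± 0.16, and Ltb, a cytokine of the lymphotoxin family, -0.59 ± 0.54 (SE). Of the remaining tested genes with the highest levels, S1pr1, Itga1 and Entpd1, which endothelial and other cells also carry, had 0.15, -0.18 and 0.02. Lag3 and Havcr2, inhibitory receptors of activated T cells, had 0.17 ± 0.39 and -0.55 ± 0.47 (SE; edgeR, adjusted p = 0.996 for each).

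**Figure D4:**
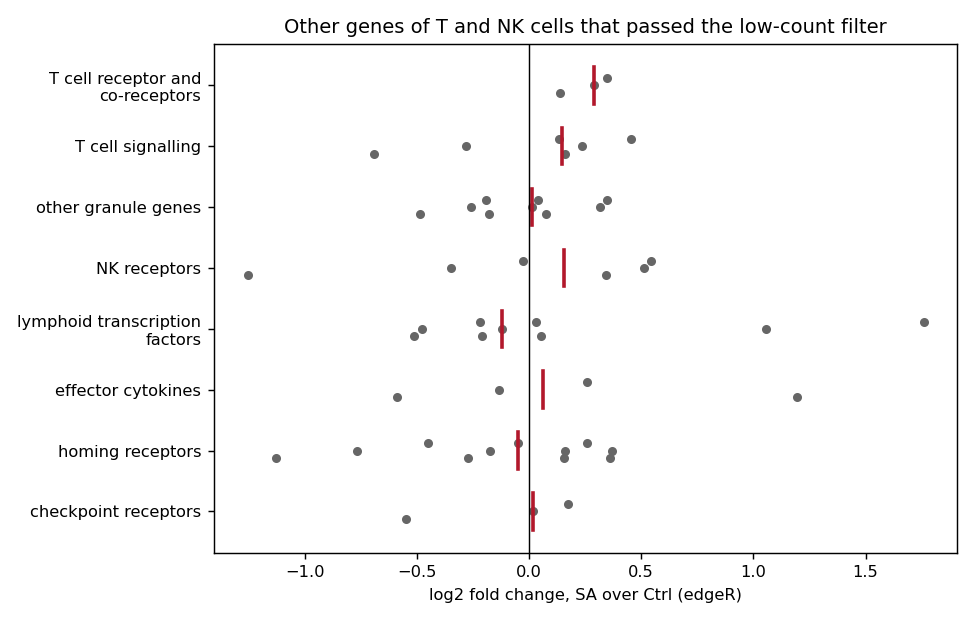
Log2 fold change of SA over Ctrl (horizontal axis, edgeR) for each gene of the 8 lists of T and NK cell genes that passed the low-count filter, with the median of each list in red. No gene was past the threshold, the medians lie between -0.12 and 0.29, and the points farthest out are Zbtb16 at 1.76 and Slamf7 at -1.25.

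Other cell types can carry some of the 10 genes. CD8 alpha occurs without CD8 beta on the type 1 conventional dendritic cells of the mouse, whose 10 markers summed to 115 ± 12.5 CPM in SA and 115 ± 14.3 CPM in Ctrl (SD, n = 4 each). Their defining markers did not pass the test, with log2 fold changes of 0.06 for Clec9a and 0.16 for Xcr1 (edgeR, adjusted p = 0.996 for each). Mast cells and basophils, which can hold granzyme B, had all their markers but Hdc at 3 counts or fewer in each library, with Mcpt4, Fcer1a, Tpsb2 and Prss34 at 0. Genes of B and plasma cells summed to 71.3 ± 14.6 CPM in SA and 52.5 ± 27.4 CPM in Ctrl, and those of monocytes to 15.5 ± 3.14 CPM in SA and 31.6 ± 14.5 CPM in Ctrl (SD, n = 4 each), and both sums overlapped between the groups. Within the B and plasma cell list, 11 of 12 tested genes had a positive log2 fold change, with a median of 0.37, and none was called by edgeR. Ighg2c, a heavy chain constant gene of IgG antibodies, had 44, 103, 31 and 132 counts in SA, against 0, 0, 4 and 8 counts in Ctrl. Every SA library was above every Ctrl library, as for the CD8 chains. Its log2 fold change was 4.29 ± 0.70 (SE), with an adjusted p of 0.0819 from edgeR and of 0.00624 to 0.376 over the alternatives, under 0.05 without the low-count filter, with DESeq2 and without SA 1. Reads of the closely related IgG genes can be split between them in counting, so the value of Ighg2c is uncertain. Cd22, an inhibitory receptor of B cells, also had all SA libraries above all Ctrl libraries, at 2.52 ± 0.394 CPM in SA and 1.35 ± 0.477 CPM in Ctrl (SD, n = 4 each), with an adjusted p of 0.626 from edgeR. Their part in the differences was not tested.

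**Figure D5:**
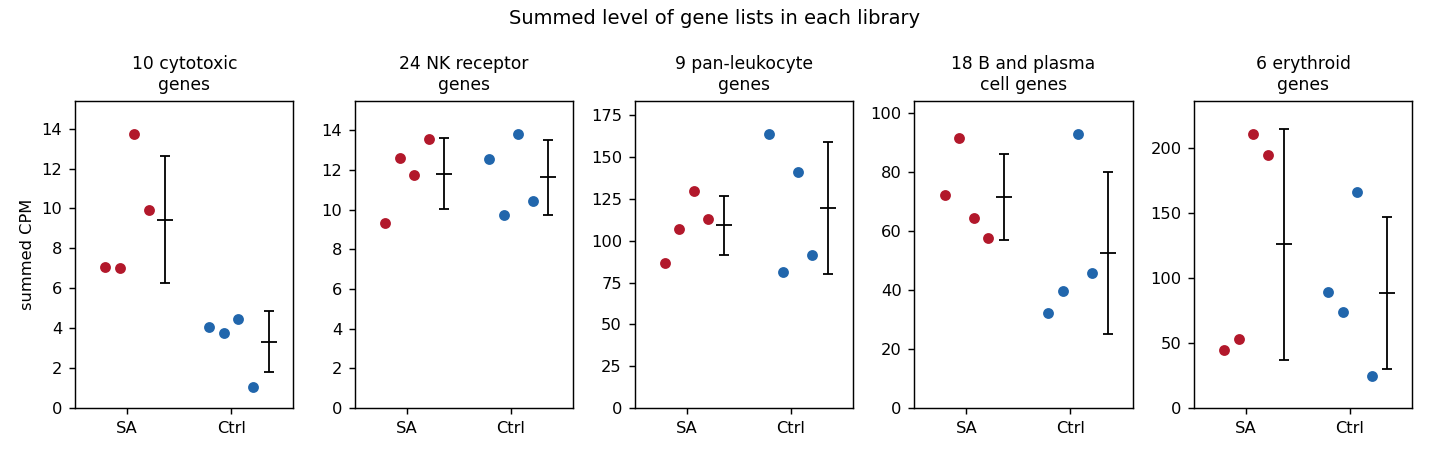
Summed CPM (vertical axis) of the 10 cytotoxic genes and of 4 other gene lists in each SA and Ctrl library, replicates from left to right, with the mean and SD of the 4 libraries in black. The 10 genes lie between 7.03 and 13.7 CPM in SA and between 1.05 and 4.44 CPM in Ctrl, while the other 4 sums overlap. The 10 genes were chosen on this contrast and the other lists were not, so nothing is read from this difference.

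Genes whose pattern was most like that of Cd8a and Gzma were found by the correlation of log2(CPM + 0.5) over the 8 libraries, as a description. For Cd8a these were Dph1 (r = 0.95), Ypel2 (0.93), Kifc1 (0.92) and Cyp2c40 (0.91), and for Gzma they were Dph1 (0.96), Asap3 (0.95), Dnajc12 (0.95) and Hps5 (0.95). Dph1, which encodes an enzyme of diphthamide synthesis and was nearest to both, had 12.7 ± 0.642 CPM in SA and 9.56 ± 0.548 CPM in Ctrl (SD, n = 4 each). By rank (Spearman) the correlation was 0.69 to 0.83 for the genes named for Cd8a and 0.93 to 0.95 for those named for Gzma. The 8 libraries share the split into SA and Ctrl. A gene whose groups differ by much more than their spread can thus reach such values, however small its fold change.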

How the data were processed

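RNAiso Plus served to extract the frozen livers and a NEBNext Ultra kit to build the sequencing libraries, per the labels' protocols, and strand is not mentioned, so overlapping and antisense genes cannot be told apart. The authors deposited whole-number read counts per gene, without normalization, and FPKM values for fewer genes. HISAT2, StringTie 2.2.1 and FastQC 0.19.7 are the tools listed, and GRCm39 and mm10 the builds, without a role for either (per the submitters' processing notes). The program that counted the reads and its annotation were not given in the sources used here. Symbols of the FPKM table, in capitals, were matched without regard to case. Coordinates are therefore printed only for RefSeq sequences (GRCm38.p6).

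The genes and all gene lists were chosen with earlier results of these data known. Levels are CPM over all counts of a library, without a low-count filter. Tests used edgeR 4.0.16 (quasi-likelihood F test, TMM factors, filterByExpr, 12358 genes, Benjamini-Hochberg adjustment over all of them, 4 SA against 4 Ctrl libraries without a block) in R 4.3.3. Fold changes of the 10 genes come from the same model on the 17681 genes with a count. SE is the fold change over the root of the F statistic. The model was checked on simulated counts, with changes seeded only in the better counted of the genes that passed the filter. Only 3 of the 10 genes passed it, and Cd8a among them fell below the level at which changes were seeded. The check thus does not cover most of the 10 genes, nor Cd8a. DESeq2 1.42.0 and limma-voom (limma 3.58.1) were alternatives, with other factors and filters, a replicate block and the omission of each library. From each T and NK cell list the text names the 2 tested genes with the highest mean CPM and the 2 with the smallest p, and it names the 4 genes most like each of Cd8a and Gzma. Ncr1, Klrb1c, Klre1, Klrc1, Cd226, Eomes, Ifng, Gzmc, Lcp2, Clec9a, Xcr1, Alas2 and other genes named at 0 were picked once their values had been seen. Intervals and limits cover counting error only. Replicates of a group differed by more than sampling noise (chi-square per degree of freedom over genes with at least 40 counts).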

Additional observations from a re-analysis of the deposited data

Results flagged for a closer look

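Cd3g in Ctrl 4 lay far from the other Ctrl libraries, at 0.131 CPM where the rest ranged over 0.522 to 0.557 CPM. The gap took 0.917 of the range of the 4 values. It rests on 2 counts in Ctrl 4 and 8 in each other Ctrl library, and Ctrl 4 also had the highest mitochondrial share. Of 28 groups of 4 values taken up in this way, 1 stood out, and chance gives about 1 in 20. The 28 include Gzmk in Ctrl, which was at 0 throughout and so could not be examined.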

How the results depend on the processing

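Cd8a, Cd8b1, Cd3d, Cd3g, Gzma, Gzmk and Nkg7 kept a positive log2 fold change with RLE or upper quartile factors, DESeq2, the replicate block and each library left out. So did the ratio of mean CPM for these but Gzmk, which has no ratio. The direction turned to 0.162 for Cd3e without Ctrl 3, and to -0.230 for Gzmb and -0.139 for Prf1 without SA 3, and with a library left out the values ran from -1.78 to 0.162 for Cd3e, from -0.230 to 0.960 for Gzmb and from -0.139 to 1.22 for Prf1. The cause was not tested. Genes called higher in SA were 1 with the reported test, 3 without the low-count filter, 23 with DESeq2 and 0 to 13 with a library left out (0 without Ctrl 4, 13 without SA 1). Genes called lower were 1, against 5 without the filter, 39 with DESeq2, 2 with limma-voom, 5 with the replicate block and 0 to 6 with a library left out (6 without SA 1, 0 without each of SA 2, SA 3, SA 4, Ctrl 1 and Ctrl 4). No T or NK cell gene outside the 10 was called under any of these. Alternatives for Ighg2c and Cd22 were added after seeing the data, and Ighg2c stayed positive, at 3.90 to 5.45. Same-numbered libraries did not deviate together in any steady way, with correlations across genes of -0.02, -0.01, 0.24 and -0.24. Libraries of unlike number ran from -0.288 to 0.286, so this check can neither show nor exclude a pairing. FPKM alternatives for the 10 genes were not run, since that table lists none of them. Depth limits Cd3e, Cd3d, Gzmk and Prf1 most, at 50 counts or fewer over all 8 libraries.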

Other observations

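Among the genes of T and NK cells outside the 10, 107 had a count, and 5 had all SA libraries above all Ctrl libraries, where 1.26% of the 17681 genes with a count did. They are Ccl5, described above, and Pdcd1, Tigit, Skap1 and Trgc4, which were picked with their values in view and had too few counts for the test. Pdcd1, which encodes the inhibitory receptor PD-1 of activated T cells, had 8, 5, 20 and 15 counts in SA, against 0, 0, 3 and 3 counts in Ctrl. Tigit, another inhibitory receptor of T and NK cells, had 5, 8, 8 and 11 counts in SA, against 1, 0, 0 and 4 counts in Ctrl. In CPM these came to 0.701 ± 0.489 in SA and 0.0981 ± 0.113 in Ctrl for Pdcd1, and to 0.450 ± 0.104 in SA and 0.0830 ± 0.124 in Ctrl for Tigit (SD, n = 4 each). Skap1, a T cell adaptor, had 9, 11, 17 and 29 counts in SA, against 6, 7, 8 and 2 counts in Ctrl. Trgc4, a constant gene of the gamma chain of the T cell receptor, had 4, 6, 2 and 8 counts in SA, against 0, 1, 2 and 0 counts in Ctrl. SA 3 and Ctrl 3 had 2 counts each, at 0.142 and 0.130 CPM. Their order thus rests on library size alone, and both lie under the limit that a count of 0 allows. Slamf7 and Il18r1 had all SA libraries below all Ctrl libraries, where likewise 1.26% of genes did, and Il18r1 had 17 counts in SA and 32 in Ctrl.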
